A study of Mus musculus with 8 samples.

Results

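The Kruppel-like factors measured here are the 10 Klf genes Klf2, Klf3, Klf4, Klf5, Klf6, Klf7, Klf9, Klf10, Klf13 and Klf16. Their probes were taken by gene name among the non-control probes of a mouse microarray. The 10 members were chosen with earlier results of these data known, and the other 7 Klf genes on the array are given separately. The members are 10 of 35715 gene names on the array and were covered by 13 of 55681 probes, with 3 probes for Klf13, 2 for Klf3 and 1 for each other gene. The cells were NIH3T3, an immortalised line of mouse embryonic fibroblasts, and the study asked what cordycepin does to their response to serum. Cordycepin, or 3′-deoxyadenosine, is a nucleoside that resembles adenosine but lacks the 3′ hydroxyl needed to extend RNA. All cells had been grown in 10% newborn bovine serum on 15 cm plates and starved in 0.5% serum for 24 h. In the cordycepin plus serum group (n = 3 arrays), the cells received 20 µM cordycepin in DMSO and, 60 min later, 0.1 volume of serum for 30 min. Exposure to cordycepin thus lasted 90 min by the sample records, whereas the paper's figure legend places the 90 min before the serum. The serum group (n = 3) received 0.1% DMSO and the same serum, and the no serum group (n = 2) received DMSO and no serum. Cordycepin in the absence of serum was not analysed here, so its effect was measured only in serum-treated cells.

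Kruppel-like factors are transcription factors that bind GC-rich and CACCC elements through zinc fingers at their carboxyl end. The fingers are alike between members, whereas the amino-terminal regions differ and recruit different cofactors. Klf2, Klf4, Klf5, Klf6 and Klf7 are mostly known as activators, Klf3 as a repressor that recruits CtBP, and Klf9, Klf10, Klf13 and Klf16 as factors that recruit the Sin3 corepressor. Several Klf genes are known as early genes whose mRNAs appear and disappear quickly after growth factors, cytokines, steroid hormones or mechanical stress, and members act in proliferation, differentiation and growth arrest.

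Levels are given as log2 processed signal minus the 75th percentile over the probes of that array, where 0 equals the percentile. Of the 13 probes, 12 were well above background on every array of the experiment and were tested along with all other probes that passed the filter, 30859 in all. The remaining probe, for the Klf13 cDNA AK002926, was well above background on 1 serum and 1 no serum array and on no cordycepin array, and was not tested. A difference was called where the adjusted p was under 0.05 and the log2 change was 1 or more in size. Group values are mean ± SD over arrays, changes carry the standard error of the limma fit, and p-values are adjusted over all 30859 probes by the Benjamini-Hochberg procedure. All levels come from different probes, so they were compared between groups and not between genes.

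The upstream sequences of Klf genes show which regulatory elements lie next to the start sites of genes that moved in these cells. RefSeq promoter windows of 250 bases before and 50 bases after the start site (build GRCm38.p6) were held for 7 of the 10 members, all except Klf5, Klf10 and Klf16. Below are the windows of Klf2, Klf6 and Klf9, which were called lower with cordycepin. Their serum arrays all lay above those without serum, although Klf2 was not called with serum. The windows of Klf3 and Klf7 follow, which were called lower with cordycepin (Klf3 at 1 of 2 probes). Their serum and no serum arrays overlapped. Klf4, whose serum arrays also lay above those without serum, was not called with cordycepin, and its window is not shown. Capitals mark matches, on either strand, to the MEF2 box, the cyclic AMP response element core TGACG and the NF-Y element CCAAT.
Klf2, chr8:72318812-72319111, plus strand: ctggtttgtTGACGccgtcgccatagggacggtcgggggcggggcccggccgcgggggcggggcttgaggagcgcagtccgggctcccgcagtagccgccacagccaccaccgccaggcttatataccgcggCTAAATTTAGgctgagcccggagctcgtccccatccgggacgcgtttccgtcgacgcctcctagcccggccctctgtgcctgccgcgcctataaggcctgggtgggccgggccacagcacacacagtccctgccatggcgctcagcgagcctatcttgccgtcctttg
Klf6, chr13:5861239-5861538, plus strand: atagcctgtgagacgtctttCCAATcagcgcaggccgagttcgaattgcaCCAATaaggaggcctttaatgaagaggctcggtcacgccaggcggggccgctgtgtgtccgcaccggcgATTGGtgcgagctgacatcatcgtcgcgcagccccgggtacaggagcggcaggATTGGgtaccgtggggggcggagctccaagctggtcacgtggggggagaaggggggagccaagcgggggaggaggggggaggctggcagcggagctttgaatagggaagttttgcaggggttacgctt
Klf9, chr19:23140976-23141275, plus strand: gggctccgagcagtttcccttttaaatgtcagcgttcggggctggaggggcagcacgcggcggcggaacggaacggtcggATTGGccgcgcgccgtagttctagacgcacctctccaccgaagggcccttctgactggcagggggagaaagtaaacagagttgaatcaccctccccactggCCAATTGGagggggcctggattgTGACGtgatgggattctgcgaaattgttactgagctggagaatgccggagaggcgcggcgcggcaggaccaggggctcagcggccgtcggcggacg
Klf3, chr5:64803271-64803570, plus strand: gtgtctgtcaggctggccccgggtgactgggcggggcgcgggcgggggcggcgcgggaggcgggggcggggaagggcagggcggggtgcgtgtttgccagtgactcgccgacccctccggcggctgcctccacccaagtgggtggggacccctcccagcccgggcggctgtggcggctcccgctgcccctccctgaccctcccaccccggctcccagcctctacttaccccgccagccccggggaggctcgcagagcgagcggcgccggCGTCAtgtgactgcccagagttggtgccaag
Klf7, chr1:64121340-64121639, minus strand: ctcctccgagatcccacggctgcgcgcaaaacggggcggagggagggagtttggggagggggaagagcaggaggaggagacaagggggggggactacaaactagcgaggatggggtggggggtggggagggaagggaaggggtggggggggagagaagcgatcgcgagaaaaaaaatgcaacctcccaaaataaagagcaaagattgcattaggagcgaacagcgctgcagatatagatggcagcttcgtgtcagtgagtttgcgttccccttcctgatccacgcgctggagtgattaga
In these windows, Klf6 held 4 CCAAT elements, 2 on each strand, and Klf9 held 3, of which 2 overlap on opposite strands. The window of Klf13, which was not called, held 2. CCAAT was present in 37.4% of all 32851 promoter windows of the same length. The Klf2 window held a MEF2 box whose first base lies at -118 from the start site, a match found in 3.19% of all windows, and no other member's window held one. TGACG was found in 5 of the 7 windows, at -241 in Klf2, -46 in Klf9, 20 in Klf3, and also at -232 in Klf4 and -56 in Klf13, neither of which was called, against 20.8% of all windows. The Klf3 window, 76.7% GC, held 6 matches to GGGCGG and 5 to CACCC, elements that Klf and Sp proteins themselves bind. At least 1 match occurs in 35.7% and 57.5% of all windows, which gives no background for several matches. GGGCGG also matched 4 times in Klf4, 3 in Klf13, 2 in Klf2 and 1 each in Klf6 and Klf7. CACCC also matched 3 times in Klf7 and 1 each in Klf2, Klf9 and Klf13. No window of the 7 members contained the CArG box bound by serum response factor (1.63% of all windows), the Ets element CCGGAA (14.9%) or the sequence TATAAA (13.6%), which says only that these letters are not in the windows searched. Both strands were searched for every motif. These matches are descriptions and do not show binding.

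**Figure D1:**
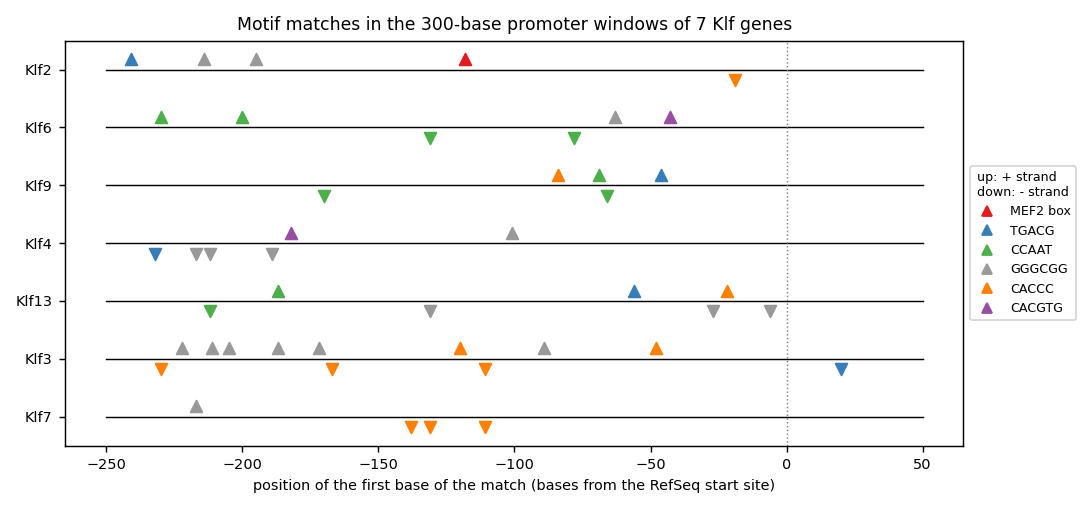
Motif matches in the promoter windows of the 7 Klf genes with a RefSeq entry, plotted by the position of the first base of each match from the start site, with triangles pointing up for the plus strand and down for the minus strand. The MEF2 box is seen in Klf2 at -118, CCAAT in Klf6, Klf9 and Klf13, and the 6 GGGCGG matches upstream in Klf3.

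Cordycepin lowered 6 of the 10 Klf genes by both criteria, namely Klf10, Klf6, Klf2, Klf9, Klf16 and Klf7, each measured by 1 probe. Klf3 met both criteria at 1 of its 2 probes. In this comparison of cordycepin plus serum with serum, 7 of the 12 tested Klf probes were called lower and 0 higher, where 2.99% of all tested probes were called lower and 7.56% higher. Because the members were chosen with earlier results of these data known, the counts and shares here and below are a description and not a test of the family. At an unadjusted p under 0.05, limma gave 10 of the 12 lower and 0 higher, where 12.6% of all tested probes were lower and 18.5% higher. The 7 drops ran from 2.01-fold for Klf3 to 4.77-fold for Klf10. All 12 tested probes had a change below 0, with a median log2 change of -1.10, against 0.09 over all probes tested. On 11 of the 12 probes each cordycepin array was below each serum array, Klf5 being the exception, where this held for 13.9% of all tested probes.

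With serum alone, 2 of the 12 probes were called higher, those of Klf6 and Klf9, and 0 lower, where 0.878% of all tested probes were called higher and 0.898% lower. At an unadjusted p under 0.05, 6 were higher and 0 lower, where 4.19% of all probes were higher and 6.11% lower. Neither Klf6 nor Klf9 was called with centring on spike-in probes, at 1.04 and 0.67, where the median of all probes moved to -0.39. The median log2 change of the 12 probes was 0.50, against -0.01 over all probes, and 11 of the 12 changes lay above 0. When cordycepin plus serum was compared with no serum, 1 probe was called lower, that of Klf10, and 0 higher, where 3.08% and 6.46% of all probes were called. At an unadjusted p under 0.05, 8 were lower and 0 higher, where 11.3% of all probes were lower and 15.5% higher. Their median log2 change was -0.55, against 0.07 over all probes. These 3 comparisons share arrays, so their values are set side by side and are not independent.

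**Figure D2:**
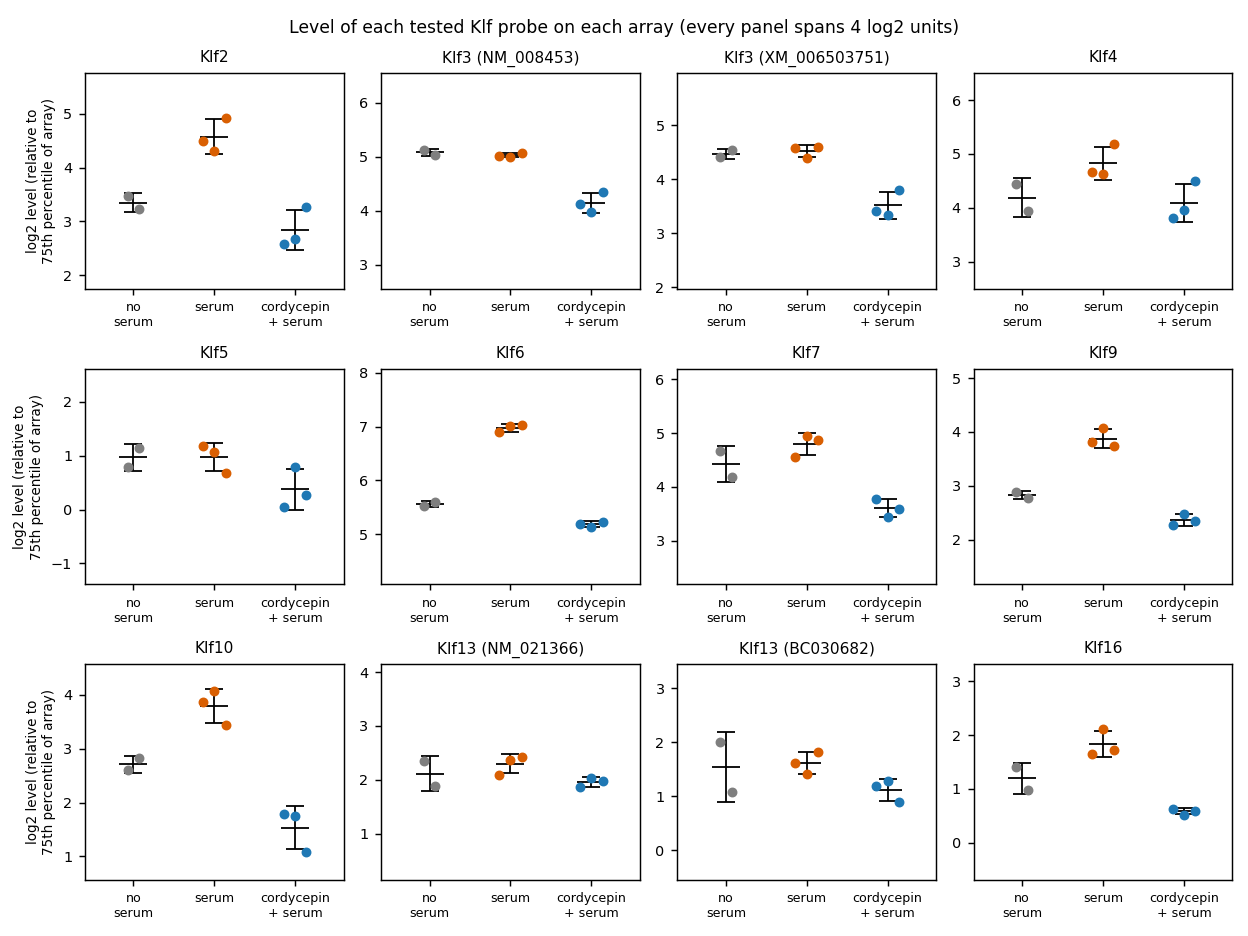
Level of each of the 12 tested Klf probes on each array, in log2 units relative to the array's 75th percentile, with points for arrays and bars for mean ± SD in the no serum (n = 2), serum (n = 3) and cordycepin plus serum (n = 3) groups. Every panel spans 4 log2 units. The Klf6 arrays cluster near 5.56 without serum, 6.97 with serum and 5.19 with cordycepin, whereas the 3 groups of Klf13 lie close together.

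Among the activators, Klf6 gave the tightest measurements. Klf6, first known as a core promoter element binding protein and as an early gene of activated liver stellate cells, had levels of 5.52 and 5.60 without serum, of 6.89, 7.0 and 7.02 with serum, and of 5.20, 5.13 and 5.23 with cordycepin and serum. The serum arrays stood apart above all others, and the cordycepin arrays lay below even the arrays without serum. Serum raised Klf6 2.66-fold (log2 change 1.41 ± 0.11, adjusted p = 0.000811) from 5.56 ± 0.06 (SD, n = 2) to 6.97 ± 0.07 (SD, n = 3). Cordycepin lowered it 3.45-fold (log2 change -1.79 ± 0.10, adjusted p = 1.919e-05) to 5.19 ± 0.05 (SD, n = 3). Against no serum, the cordycepin level differed by a log2 change of -0.37 ± 0.11 (adjusted p = 0.0598), which was not called. The Klf6 probe lies at chr13:5869371-5869430 of build mm9.

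Klf2 showed a similar pattern with a wider spread. Klf2, a factor best known for keeping endothelial cells and T cells quiescent and for its induction by the Erk5 kinase through Mef2 proteins, had levels of 3.47 and 3.22 without serum, of 4.49, 4.31 and 4.93 with serum, and of 2.58, 2.67 and 3.27 with cordycepin. Each serum array was above the 5 others, and 1 cordycepin array overlapped the range without serum. The drop with cordycepin was 3.33-fold (log2 change -1.74 ± 0.23, adjusted p = 0.000983). The difference of serum from no serum was 2.34-fold (log2 change 1.23 ± 0.25), and its adjusted p of 0.0523 fell just outside the threshold. Over the alternatives this adjusted p ran from 0.0105 to 0.802. Cordycepin plus serum and no serum differed by -0.51 ± 0.25 (adjusted p = 0.247). The probe lies at chr8:74845137-74845196 of mm9.

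Klf7, known from nerve cells and widely expressed, was lowered by cordycepin from a level that serum had not detectably altered. It measured 4.67 and 4.19 without serum, 4.56, 4.95 and 4.87 with serum, and 3.77, 3.43 and 3.60 with cordycepin. The cordycepin arrays lay below all others, while the serum and no serum arrays overlapped. The drop was 2.28-fold (log2 change -1.19 ± 0.17, adjusted p = 0.00167), and against no serum it was -0.83 ± 0.19 (adjusted p = 0.0223), which did not reach the minimum change. With spike-in centring the drop was -1.20 with an adjusted p of 0.190 and was not called. The serum change was 0.36 ± 0.19 (95% interval -0.08 to 0.81, adjusted p = 0.673). The probe lies at chr1:64082265-64082324 of mm9.

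Neither of the other activators was called in any comparison. Klf4, one of the factors used to reprogramme fibroblasts to pluripotency and known for growth arrest, measured 4.19 ± 0.36 (SD, n = 2) without serum, 4.82 ± 0.31 (SD, n = 3) with serum and 4.09 ± 0.36 (SD, n = 3) with cordycepin. Its serum arrays, at 4.63 to 5.18, all lay above the other 5, which reached 4.50. The cordycepin change was -0.73 ± 0.24 (95% interval -1.28 to -0.19, adjusted p = 0.0692) and the serum change 0.63 ± 0.27 (adjusted p = 0.458). Klf5, known for promoting proliferation in intestinal and smooth muscle cells, was 0.97 ± 0.25 (SD, n = 2) without serum, 0.97 ± 0.26 (SD, n = 3) with serum and 0.37 ± 0.38 (SD, n = 3) with cordycepin. The arrays of the serum and cordycepin groups overlapped, and the change of -0.60 ± 0.22 had an adjusted p of 0.102.

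The CtBP-recruiting repressor Klf3 had nearly the same level with and without serum and a lower level with cordycepin at both of its probes. The brighter probe, for NM_008453 at chr5:65221309-65221368 of mm9, measured 5.13 and 5.04 without serum, 5.02, 5.0 and 5.07 with serum, and 4.12, 3.97 and 4.35 with cordycepin. The other probe, for XM_006503751 at chr5:65223991-65224050, measured 4.41 and 4.54, then 4.58, 4.39 and 4.61, and 3.42, 3.33 and 3.80 in the same order. At both probes every cordycepin array lay below the 5 others. The cordycepin changes were -0.88 ± 0.12 (adjusted p = 0.00133) and -1.01 ± 0.15 (adjusted p = 0.00175), so both probes passed the test of significance and only the second reached the minimum change. That call sat on the edge of the rule. It was lost, at changes of -0.98 to -0.92, when cordycepin replicate 1 or 2 or serum replicate 1 or 3 was left out. It was also lost at -0.95 with the slide row as a block, with spike-in centring, and with the percentile taken over spots instead of probes. Against no serum the changes were -0.94 ± 0.14 and -0.96 ± 0.16, with adjusted p of 0.00242 and 0.00539, again short of the minimum change. The serum changes were -0.06 ± 0.14 and 0.05 ± 0.16, with 95% intervals of -0.37 to 0.25 and -0.33 to 0.42.

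Of the Sin3-recruiting members, Klf9 rose with serum and fell with cordycepin. Klf9, known as a gene induced by glucocorticoid and thyroid hormones, measured 2.88 and 2.77 without serum, 3.82, 4.07 and 3.73 with serum, and 2.28, 2.48 and 2.34 with cordycepin. The 3 groups did not overlap, with cordycepin lowest. The rise with serum was 2.07-fold (log2 change 1.05 ± 0.14, adjusted p = 0.00931) and the drop with cordycepin 2.84-fold (log2 change -1.51 ± 0.13, adjusted p = 9.926e-05). The serum rise was near the minimum change and fell to 0.95 without serum replicate 2 and to 0.99 without no serum replicate 2, where it was no longer called. The probe lies at chr19:23240410-23240469 of mm9.

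Klf10 had the largest drop among the members and the only called level below that of cells without serum. Klf10, known as an early gene induced by TGF-beta, measured 2.6 and 2.82 without serum, 3.86, 4.06 and 3.45 with serum, and 1.79, 1.75 and 1.07 with cordycepin. The groups did not overlap. Cordycepin lowered it 4.77-fold (log2 change -2.25 ± 0.23, adjusted p = 0.000280). It was 2.26-fold below no serum (log2 change -1.17 ± 0.26, adjusted p = 0.0177), and this call was lost without either no serum array and without cordycepin replicate 3, where the change was -0.94. The serum difference of 2.11-fold (log2 change 1.08 ± 0.26) had an adjusted p of 0.0920, which ranged from 0.0148 to 0.802 over the alternatives. The probe lies at chr15:38224255-38224314 of mm9.

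Klf16 fell with cordycepin, and its serum difference did not pass the test. It measured 1.4 and 0.99 without serum, 1.65, 2.10 and 1.72 with serum, and 0.63, 0.52 and 0.59 with cordycepin. The groups did not overlap. The drop was 2.37-fold (log2 change -1.24 ± 0.16, adjusted p = 0.000920), and with spike-in centring it was -1.25 with an adjusted p of 0.151 and was not called. The serum change was 0.63 ± 0.18 (adjusted p = 0.162). The probe lies at chr10:80030074-80030133 of mm9.

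Klf13, known as a regulator of the chemokine RANTES in T cells, was not called at either tested probe. Its NM_021366 probe measured 2.11 ± 0.32 (SD, n = 2) without serum, 2.30 ± 0.18 (SD, n = 3) with serum and 1.96 ± 0.09 (SD, n = 3) with cordycepin, a cordycepin change of -0.34 ± 0.15 (adjusted p = 0.176). The BC030682 probe gave 1.54 ± 0.65, 1.62 ± 0.21 and 1.12 ± 0.20 in the same order, a change of -0.50 ± 0.24 (adjusted p = 0.198). The intervals of these changes, -0.69 to 0.01 and -1.05 to 0.05, still include drops of moderate size. The BC030682 probe, at chr7:71032482-71032541 of mm9, has coordinates that run in the opposite order to those of the other Klf13 probes. In the design, this order followed the strand of the gene for 97.6% of 21872 spots for RefSeq mRNAs, so the strand this probe reports was not settled here.

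**Figure D3:**
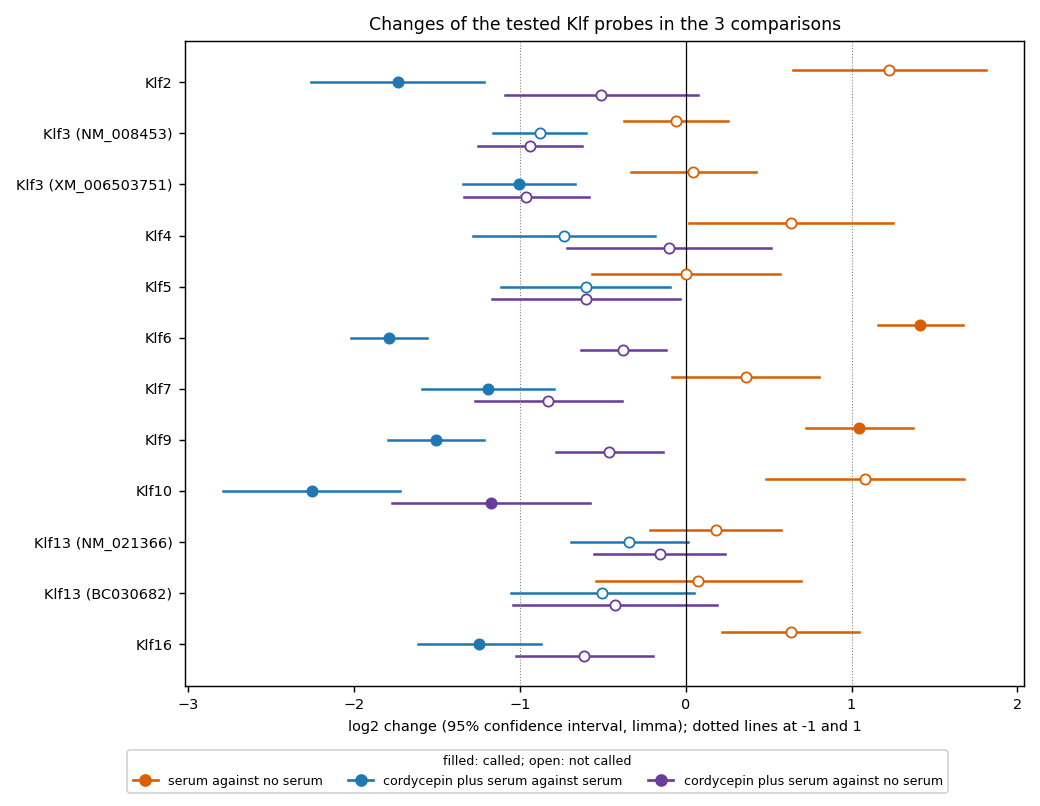
Log2 changes of the 12 tested Klf probes with 95% confidence intervals from limma in the 3 comparisons, filled where called. The 7 filled cordycepin points run from -1.01 for Klf3 to -2.25 for Klf10, the filled serum points are Klf6 (1.41) and Klf9 (1.05), and Klf10 alone is filled against no serum (-1.17).

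The shared zinc fingers of the family raise the question of how distinct the probes are. The most similar pair were the 60-base probes of Klf5 and Klf13, which both lie in finger-coding sequence and are shown here with identical aligned bases in capitals.
Klf5: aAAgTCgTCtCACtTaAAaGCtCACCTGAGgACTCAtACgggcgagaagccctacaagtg
Klf13: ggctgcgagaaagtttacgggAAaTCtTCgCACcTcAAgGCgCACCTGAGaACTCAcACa
They shared 29 of 40 aligned bases without gaps, with a longest common run of 8 bases, although the same frame reads 13 identical residues in a row. No other pair of Klf probes shared more than 25 bases in its best alignment, and none had a common run of more than 8. Neither Klf5 nor Klf13 was called in any comparison.

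Genes with a RefSeq mRNA probe whose levels followed those of a called member most closely were found by the root mean square of the difference between centred log2 levels over the 8 arrays, among 17881 probes. For Klf6 these were Per1 (0.151), Zc3h12a (0.157) and Relt (0.161), and Per1, a circadian clock gene, was also second for Klf2 (0.222) after Nfil3 (0.221). For Klf3 the brighter probe was used, which was not itself called. Spry1, an inhibitor of growth factor receptor signalling, was closest to it (0.0659), followed by Map3k14 (0.0796) and Ticam1 (0.0860). Closest to Klf9 were Dlx2 and Stil (both 0.112) and Ankrd1 (0.137), and closest to Klf10 was the kinase gene Nuak2 (0.182). Usp24 was closest to Klf7 (0.154) and Cttnbp2nl to Klf16 (0.149), and Eva1c was among the 3 nearest of both Klf7 (0.160) and Klf16 (0.161). These are descriptions over 8 arrays of 3 groups and carry no test.

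Of the other 7 Klf genes on the array, 4 (Klf8, Klf14, Klf15 and Klf17) were too dim to be tested, and Klf11 and Klf12 were not called in any comparison. Klf1, the erythroid member, was called higher with cordycepin (log2 change 1.13 ± 0.16, adjusted p = 0.00145), from -5.22 ± 0.27 (SD, n = 3) to -4.09 ± 0.16 (SD, n = 3), at a level near background. It was well above background on 3 of 3 cordycepin, 2 of 3 serum and 1 of 2 no serum arrays. Against no serum, Klf1 was also called higher (1.12 ± 0.18, adjusted p = 0.00386). Klf1 passed the filter only through the group where it was high, so neither call is taken as support for a rise. In the comparison with serum, Klf1 was not called with another background correction (0.42), with quantile normalisation (0.83) or without serum replicate 2 (0.99). Among the Sp factors, the closest relatives of the family, 6 of 9 genes were tested at 7 probes. With cordycepin, 1 probe was called higher and 0 lower, where 7.56% and 2.99% of all tested probes were called. It belonged to Sp9, which exceeded background clearly on none of the 3 serum arrays and was at least 1.49-fold higher (adjusted p = 0.0123). Sp9 passed the filter only through the 3 cordycepin arrays, and its call was lost with normexp (0.43), with quantile normalisation (1.03) and with spike-in centring, while the probe was not tested when all 8 arrays had to be well above background. The median cordycepin change of the Sp probes was -0.16, and Sp1 and Sp3 measured -0.30 and -0.16, neither called.

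Among partners of the family, only a probe of Mef2d was called. None of 13 probes for 10 cofactor genes, among them those of CtBP, Sin3, histone deacetylases and p300, and none of 11 probes for 7 ubiquitin ligases known to degrade Klf proteins was called in any comparison. At an unadjusted p under 0.05 in the comparison of cordycepin with serum, limma gave 1 cofactor probe lower, that of Sin3a (-0.56, adjusted p = 0.0135). It also gave 2 ligase probes lower, one of Btrc (-0.33) and one of Fbxw7 (-0.31), and 0 probes of either list higher. Of all tested probes, 12.6% were lower and 18.5% higher. The second Btrc probe went the other way, at 0.33, and the second Fbxw7 probe measured -0.24. The median cordycepin changes of these lists were 0.11 and -0.14, beside 0.09 over all probes. In the Erk5 and Mef2 route that is known to induce Klf2 and Klf4, 1 of 14 probes of 9 genes was called lower with cordycepin and 0 higher. Of all tested probes, 2.99% were called lower and 7.56% higher. At an unadjusted p under 0.05 limma gave 4 of the 14 lower and 0 higher, where 12.6% of all tested probes were lower and 18.5% higher. The called probe was one of Mef2d, a transcription factor that binds the MEF2 box, with a log2 change of -1.38 ± 0.11 (adjusted p = 9.040e-05). With spike-in centring it was -1.39 with an adjusted p of 0.0763 and was not called. The second Mef2d probe differed by -0.51 ± 0.11 (adjusted p = 0.0114), and Mef2c by -0.44 ± 0.12 (adjusted p = 0.0332) and Hdac7 by -0.38 ± 0.11 (adjusted p = 0.0445), all short of the minimum change. Mapk7, which encodes Erk5, measured -0.16 ± 0.14 and was not called. Against no serum, the same Mef2d probe was also called lower with cordycepin (-1.01 ± 0.13, adjusted p = 0.00116), where 3.08% of all tested probes were called lower.

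Among genes known as Klf targets, 2 of 25 probes for 16 tested genes were called lower with cordycepin and 0 higher, beside 2.99% and 7.56% of all probes, and the median change was -0.04. The 2 called were Plaur, the urokinase receptor, at -1.74 ± 0.21 (adjusted p = 0.000603), and Smad7, an inhibitor of TGF-beta signalling, at -1.61 ± 0.11 (adjusted p = 4.145e-05). At an unadjusted p under 0.05, limma gave 5 of the 25 lower and 0 higher with cordycepin, where 12.6% of all probes were lower and 18.5% higher. Besides the 2 called, these were S1pr1 (-0.82), Tagln (-0.64) and a Cdkn1a probe (-0.49), whose other probe measured -0.09. With serum, limma gave 5 higher and 0 lower, where 4.19% of all probes were higher and 6.11% lower. Serum raised Plaur by 1.4 ± 0.23 (adjusted p = 0.0217), the 1 probe of the 25 called higher with serum, where 0.878% of all probes were called. Cdkn1a, Ccnd1, Odc1 and Tgfbr1 were not called in any comparison at any of their probes.

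The arrays were alike in the share of probes well above background, 51.1 to 57.1%, and no spot was saturated. They differed in signal level, as the 75th percentile of the processed signal ran from 302.2 in cordycepin replicate 1 to 692 in no serum replicate 1. Fos and Junb, which serve as checks of the serum treatment, rose with serum by 4.86 ± 0.28 (adjusted p = 0.000172) and 2.64 ± 0.18 (adjusted p = 0.000377). All 10 fibroblast markers were well above background on all 8 arrays. The epithelial markers Cdh1 and Krt18 were so on 0 arrays, Epcam on 1 and Krt8 on 7. Of the endothelial markers, Cdh5 was so on 0 arrays and Kdr and Pecam1 on 8, and of the muscle markers, Myh11 on 0, Myod1 on 1 and Des on 7. The summed level of 3 leukocyte markers was 8.75 to 10.9 times the 75th percentile with cordycepin, against 2.03 to 2.39 with serum and 2.01 to 2.29 without, with Cd68 and Cd3e well above background on all arrays and Ptprc on 3. Its part in the Klf results was not tested. All 8 arrays lay on 1 slide. Row 1 of the slide held 2 cordycepin, 1 serum and 1 no serum array, and row 2 held 1, 2 and 1. For the 7 called probes, the difference of cordycepin from serum ran from -2.09 to -0.96 in row 1 and from -2.68 to -0.70 in row 2. The cordycepin and serum arrays of these probes did not overlap, so a drop within each row was fixed in advance and adds no support. The serum difference within rows was 1.38 and 1.41 for Klf6, and 0.94 and 1.13 for Klf9.

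**Figure D4:**
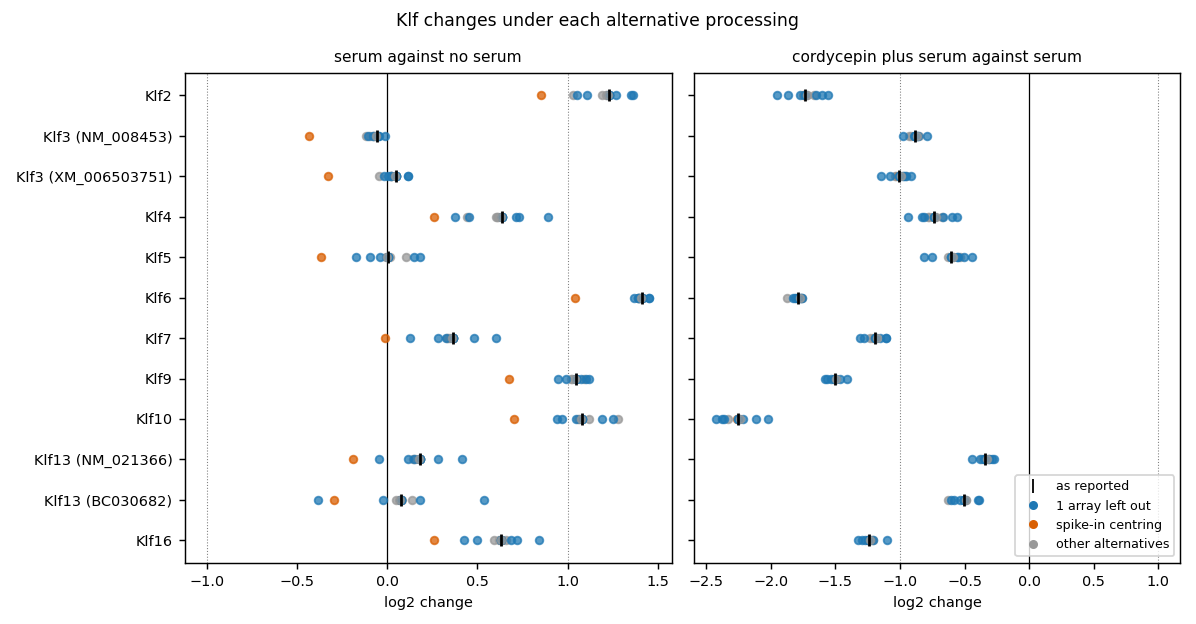
Log2 change of each tested Klf probe as reported (black bar) and under each alternative (points), for serum against no serum and for cordycepin plus serum against serum. Cordycepin changes stay below 0 for all 12 probes, whereas centring on spike-in probes (orange) moves every serum change to the left, that of Klf6 from 1.41 to 1.04.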

How the data were processed

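Cy3-labelled RNA was measured on 8 1-colour Agilent mouse arrays. The deposited files hold intensity per spot, which the authors extracted with Feature Extraction 10.7.3.1 (background subtraction, spatial detrending, outlier marks), and probe positions on mm9. The study names limma and gives no normalisation or filter. Of 62976 spots, 3671 control spots and outlier spots were left out, spots of a probe were averaged, and the 75th percentile of log2 processed signal over probes was subtracted, so a change shared by most transcripts is not seen. A probe was tested if all arrays of 1 group or more marked it well above background. The fit used limma (version 3.58.1, R 4.3.3) on all 8 arrays with a mean for each group, and two-sided p-values were adjusted by Benjamini-Hochberg. The labels call the samples independent triplicates. With 3, 3 and 2 arrays, the number of arrays limits the precision. The calculation was tested on simulated data. All probes of the members are given, other genes where a probe of a list was called or as relatives in the same list, and genes from among the 3 nearest by level. The members and lists were chosen with earlier results of these data known. A gene of the target list is not reported here and was left out of its counts. Alternatives covered background correction, normalisation, filter, call rule, spread model, blocks and leaving out each array.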

Additional observations from a re-analysis of the deposited data

How the results depend on the processing

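Under the alternatives, 684 values of single Klf probes were recomputed: 627 kept their direction and side of the threshold, 20 lost and 18 gained a call, and 19 changed sign, all of them values that had not been called. The 7 Klf probes called lower with cordycepin against serum became 4 (Klf10, Klf9, Klf6 and Klf2) with centring on spike-in probes. There, Klf7 (-1.20), Klf16 (-1.25) and Klf3 (-1.01) kept their changes and lost the adjusted p. The 7 became 6 with the slide row as a block or the percentile taken over spots, and 6 to 7 when 1 array was left out. The 2 called higher with serum became 4 (Klf2 and Klf10 added) with normexp background correction, with an intensity trend and robust spread, and with an unadjusted p, 1 without the filter on dim probes, 0 with spike-in centring, and 1 to 4 when 1 array was left out (4 without cordycepin plus serum replicate 3, 1 without serum replicate 2 or no serum replicate 2). The 1 called lower with cordycepin against no serum, that of Klf10, became 2 with normexp, 3 with quantile normalisation, 4 with no minimum fold change, and 0 with spike-in centring or without the filter. It became 1 to 2 when 1 cordycepin or serum array was left out (2 without cordycepin plus serum replicate 3, both of Klf3). Leaving out either no serum array left 1 array in that group, and the call of Klf10 did not hold. With 1 array left out, the change of Klf10 ran from -1.30 to -0.94. Spike-in centring moved the median of all probes to -0.39 for serum and -0.31 for cordycepin against no serum. With the replicate number as a block, 4 probes were called higher with serum and 2 (both of Klf3) lower with cordycepin against no serum, where Klf10 was at -0.97. Arrays with the same number correlated at -0.17 to 0.23 in their deviations, so the numbers were not taken to pair the samples. The sign changes for serum were, with spike-in centring, Klf13 at -0.19 and -0.30, Klf3 at -0.33, Klf5 at -0.37 and Klf7 at -0.010, Klf5 at -0.00568 with quantile normalisation and at -0.00104 with the percentile taken over spots, an alternative added after seeing the data, and Klf3 at -0.044 with the replicate block. With 1 array left out, the serum changes ran from -0.047 to 0.41 and from -0.39 to 0.54 for the 2 Klf13 probes, from -0.020 to 0.11 for Klf3 and from -0.17 to 0.18 for Klf5, and the changes against no serum from -0.39 to 0.072 and from -0.89 to 0.037 for Klf13 and from -0.36 to 0.15 for Klf4. The causes were not tested. The number of arrays, with 2 in the no serum group, limits what could be called with serum.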
